A study of Eucalyptus nitens with 12 samples.

Results

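Eucgr.I01292 is the *Eucalyptus grandis* gene model to which the study assigned the annotation dehydrin family protein, and it was down-regulated in low kraft pulp yield (KPY) samples of *Eucalyptus nitens*. It was chosen by its lower read level in low KPY in these same libraries, so its fold changes between KPY classes are given as a description and carry no test. All transcripts assigned to this identifier were taken from both count tables, which gave 3 transcripts of 1 gene. These were CUFF.32246 and CUFF.32247 among 26279 transcripts of the Meunna trial, and CUFF.29919 among 23917 transcripts of the Florentine trial.

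Dehydrins are the group of late embryogenesis abundant (LEA) proteins that carry the lysine-rich K segment. They are hydrophilic and largely unstructured, bind membranes and other proteins as cells lose water, and are known in many plants as genes induced by drought, cold, salt and abscisic acid (ABA). In woody stems dehydrins are best known from seasonal cold hardening of bark and xylem parenchyma.

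RNA came from cambial scrapings of trees labelled 20 years old, standing in 2 Tasmanian field trials, Meunna and Florentine. By the study's dates of establishment and sampling, the trials were younger than this label and differed in age when sampled. The trees were taken from the extremes of KPY, the share of wood recovered as pulp. Each trial gave 3 high KPY and 3 low KPY bulks, each bulk a pool of RNA from several trees, so the 12 libraries measure pools and not single trees. The trees grew without any applied treatment, the trials were sampled in different years and months, and the low KPY trees were also the smaller ones by the study's description. KPY class and growth therefore cannot be told apart here, nor can trial and sampling date, and in such tissue fewer cells of a type and less RNA per cell cannot be told apart.

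Library totals were 49489614 to 89987549 counts in Meunna and 44538273 to 53775708 in Florentine. The scaling factors (trimmed mean of M values, TMM) were 0.857 to 0.946 in the high KPY libraries and 1.08 to 1.17 in the low KPY libraries of both trials, without overlap. The tissue label xylem was checked against 10 xylem genes, whose summed level was 812 to 15947 CPM (counts-per-million, TMM scaled) over the libraries. The 2 genes of green tissue summed to 0.0716 to 7.12 CPM. The 1 gene taken for phloem, by its annotation phloem protein 2-B10 alone, stood at 0.153 to 3.44 CPM. With so few genes, these values do not measure how much of either tissue was present.

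In Meunna, Eucgr.I01292 was read on a pair of transcripts, and both were several fold lower in low KPY. CUFF.32246 had 195, 188 and 138 counts in the high KPY bulks and 52, 28 and 6 in the low KPY bulks. On the TMM scaled CPM scale these were 2.64, 2.31 and 2.13 CPM against 0.677, 0.388 and 0.107 CPM. All low KPY bulks of this transcript lay below all high KPY bulks, and low KPY bulk 3 was lowest. The class means were 2.36 ± 0.256 CPM in high KPY and 0.391 ± 0.285 CPM in low KPY (SD, n = 3), a log2 fold change of -2.57 with a standard error of 0.60.

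CUFF.32247 carried more of the gene's reads, with 325, 317 and 242 counts in high KPY and 110, 18 and 20 counts in low KPY. Its levels were 4.39, 3.89 and 3.74 CPM in high KPY and 1.43, 0.250 and 0.358 CPM in low KPY. Here too the classes did not overlap, but low KPY bulk 1 stood well above the other low KPY bulks. The means were 4.01 ± 0.344 and 0.680 ± 0.654 CPM (SD, n = 3) and the log2 fold change was -2.55 with a standard error of 0.66. Without low KPY bulk 1 the log2 fold change of CUFF.32247 was -3.71 and that of CUFF.32246 was -3.22.

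In Florentine the gene was read on CUFF.29919 alone. Its counts were 520, 533 and 534 in the high KPY bulks and 216, 90 and 220 in the low KPY bulks, or 12.8, 12.6 and 13.2 CPM against 4.51, 1.53 and 3.72 CPM. The high KPY bulks were nearly equal, the low KPY bulks all lay below them, and low KPY bulk 2 was the lowest. The means were 12.9 ± 0.297 and 3.25 ± 1.55 CPM (SD, n = 3), with a log2 fold change of -1.99 and a standard error of 0.38. Without low KPY bulk 2 it was -1.65.

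**Figure D1:**
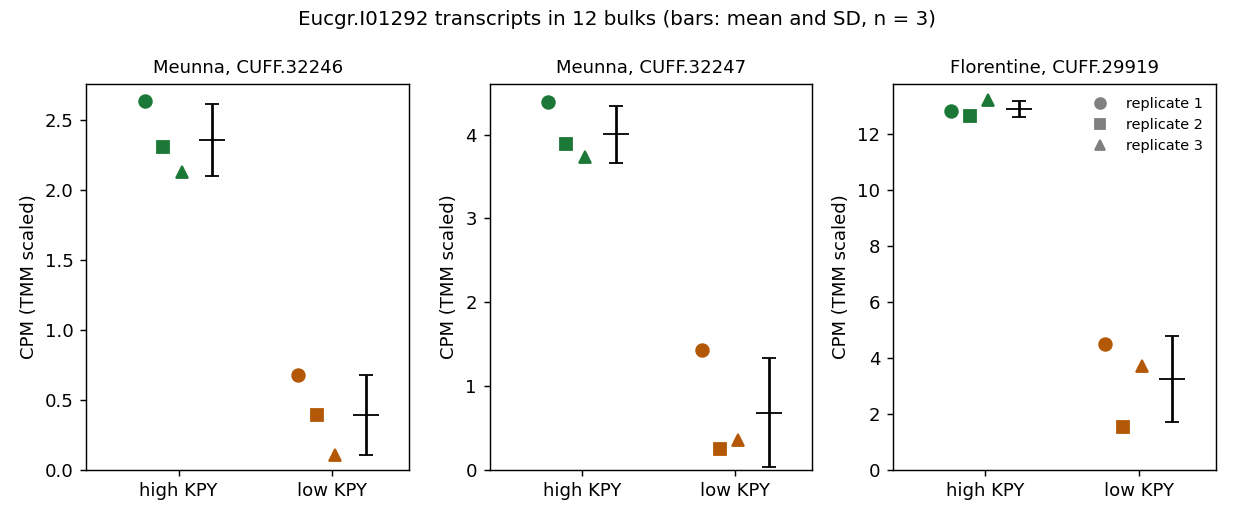
TMM scaled CPM of the 3 Eucgr.I01292 transcripts in each bulk (vertical axes in CPM, starting at 0), with high KPY in green, low KPY in orange, a symbol for each replicate number, and black bars for the mean and SD of 3 bulks. In each panel the 3 low KPY bulks lie below the 3 high KPY bulks, which cluster at 2.13 to 2.64, 3.74 to 4.39 and 12.6 to 13.2 CPM, while the low KPY bulks are scattered.

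A transcript with all low KPY bulks below all high KPY bulks was common in these tables, at 26.7% of transcripts in Meunna and 29% in Florentine, so the lack of overlap by itself says little about this gene. The size of its change was less common, but the gene was chosen for this fall, so its rank restates that choice. In Meunna low KPY, CUFF.32246 stood below 1 CPM in every bulk and CUFF.32247 in bulks 2 and 3. Both therefore passed the authors' filter of 1 CPM in at least 3 libraries only through high KPY. CUFF.32246 had 280 transcripts (1.07%) and CUFF.32247 had 295 transcripts (1.12%) with a lower log2 fold change in Meunna. CUFF.29919 had 108 such transcripts (0.452%) in Florentine. The lowest high KPY bulk was 3.15 times the highest low KPY bulk for CUFF.32246, 2.61 times for CUFF.32247 and 2.80 times for CUFF.29919. Over all transcripts of a trial the median log2 fold change was near 0 (0.00034 in Meunna and 0.02 in Florentine). Scaled by library size only, that median moved to 0.30 in Meunna and 0.33 in Florentine, under upper quartile scaling it was 0.13 in Meunna, and with library size only the gene's log2 fold changes became -2.29, -2.26 and -1.70.

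The bulks of each class differed in how much they varied. In high KPY the gene was steady, with a coefficient of variation (CV) of 10.9% for CUFF.32246, 8.58% for CUFF.32247 and 2.30% for CUFF.29919. Counting error alone gives CVs of 7.59%, 5.83% and 4.35% at those mean counts, of the same order as the spread between high KPY bulks. In low KPY the CVs were 72.9%, 96.2% and 47.5%, against 18.7%, 14.2% and 7.55% from counting alone. The highest low KPY bulk was 6.31, 5.74 and 2.96 times the lowest for the same 3 transcripts. On the log2 CPM scale with a prior count of 2, which narrows the spread at low counts, the low KPY SD was 1.22, 1.27 and 0.82. Of transcripts within 0.5 log2 units of the same mean CPM in low KPY, 69.8%, 84.0% and 88.7% had a smaller SD. Only 149 and 811 transcripts were that close in Meunna, since the tables hold few transcripts so low in one class. The high KPY SD on the same log2 scale was 0.15, 0.12 and 0.03. Of transcripts of like mean CPM in high KPY, 13.9%, 12.8% and 3.99% had a smaller SD. The transcript with the fewest reads, CUFF.32246 in Meunna low KPY bulk 3, rested on 6 counts, with an exact Poisson 95% interval of 0.0394 to 0.234 CPM that covers counting error only.

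By the positions the study gives, the Meunna transcripts do not overlap each other, and the Florentine transcript spans both. The share of the gene's Meunna reads on CUFF.32246 was 37.5%, 37.2% and 36.3% in the high KPY bulks. In the low KPY bulks it was 32.1%, 60.9% and 23.1%. The exact binomial 95% interval of the low KPY bulk 2 share ran from 45.4% to 74.9% of 46 counts, above the interval of each high KPY bulk, while that of bulk 3 ran from 8.97% to 43.6% of 26 counts and that of bulk 1 from 25.0% to 39.9% of 162 counts. The mean shares were 37.01% ± 0.620 and 38.7% ± 19.7 (SD, n = 3), a difference of 1.67 percentage points (two-sided exact permutation test, p = 1, where 3 bulks against 3 cannot give a p below 0.1). Its sign turned to -9.43 points without low KPY bulk 2. Summed over both transcripts the gene had 520, 505 and 380 counts in high KPY and 162, 46 and 26 in low KPY. The summed levels were 6.36 ± 0.599 and 1.07 ± 0.904 CPM (SD, n = 3), and the log2 fold change was -2.56 with a standard error of 0.58. Since each trial had its own transcript models and its own scaling, a level in Meunna is not set against a level in Florentine.

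The gene was chosen for its fall in low KPY and not for a difference in that fall between the trials. This difference was tested in 1 fit of the 12 libraries. The test is not free of the choice, since both Meunna transcripts passed the filter only through high KPY. The log2 fold change in Florentine minus that in Meunna was 0.52, with a standard error of 0.72 (adjusted p = 0.897, unadjusted p = 0.484, edgeR's quasi-likelihood test). Leaving out 1 library at a time, this difference ran from 0.143 to 1.47, the highest without Meunna low KPY bulk 1 (SE 0.50, unadjusted p = 0.0159, adjusted p = 0.485). Of the 16184 genes tested, 0 were called (0%) at an adjusted p of 0.05 by this test, 1150 had an unadjusted p under 0.05, and DESeq2 called 110, of which Eucgr.I01292 was not one (adjusted p = 0.959).

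The other gene annotated as a dehydrin was Eucgr.A02128, whose closest *Arabidopsis thaliana* protein is HIRD11, a small histidine-rich dehydrin that binds metal ions. Its Meunna levels were 5.69, 4.93 and 7.10 CPM in high KPY and 1.82, 0.569 and 0.608 CPM in low KPY. Its Florentine levels were 4.05, 3.08 and 3.77 CPM in high KPY and 1.69, 0.458 and 1.57 CPM in low KPY. As with Eucgr.I01292, the classes did not overlap, Meunna low KPY bulk 1 was the highest of the Meunna low KPY bulks, and Florentine low KPY bulk 2 was the lowest of its class. Eucgr.A02128 was lower by a log2 fold change of -2.55 in Meunna (SE 0.51, adjusted p = 0.0136) and -1.55 in Florentine (SE 0.48, adjusted p = 0.0432). The Florentine call was lost in 5 of 13 refits, with library size only and without high KPY bulk 1, 2 or 3 or low KPY bulk 3, over a range of adjusted p from 0.00684 to 0.113. This gene too carries its annotation because the study listed it as changed in these libraries. Genes that the study did not list carry no annotation here, so other dehydrins may be present unnamed. Across the 12 libraries its log2 CPM correlated with that of Eucgr.I01292 at r = 0.844, and at r = 0.924 once the mean of each trial and class was removed.

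Genes around the dehydrins were read through lists by function, with 1 transcript per gene and without Eucgr.I01292. Their annotations came from the study's tables of changed genes, so most were chosen for a change in these same libraries and their counts are not independent evidence of direction. Among all genes so represented, 31.9% passed the test in Meunna (19.7% lower and 12.2% higher in low KPY) and 44.8% in Florentine (22.9% lower and 21.9% higher). Over all transcripts the shares were 28% and 39.5%. Florentine calls sat close to the threshold. At an adjusted p of 0.01 no Florentine transcript passed edgeR's test (0 of 23917, with 12243 at an unadjusted p under 0.05), and at 0.05 none passed without high KPY bulk 1 or bulk 3 (0 of 23917 each, with 10009 and 9701 at an unadjusted p under 0.05), while 2725 passed without low KPY bulk 3 and 9450 with all libraries. DESeq2 called 11527 on all 6 libraries.

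Of 8 LEA genes other than dehydrins, 4 fell and 2 rose in low KPY in Meunna (median log2 fold change -1.14), and 4 fell and 3 rose in Florentine (median -0.96). With library size only, 4 fell and 3 rose in Meunna. Called genes in Meunna numbered 1 without high KPY bulk 3, 2 without high KPY bulk 1 and 3 without low KPY bulk 3, and in Florentine 4 without high KPY bulk 2. Most genes of this list are not the soluble protectants the family is named for, since 5 of them carry the name LEA hydroxyproline-rich glycoprotein, which in *A. thaliana* covers NDR1/HIN1-like membrane proteins. Of these, Eucgr.F03133 fell, with log2 fold changes of -2.37 in Meunna (adjusted p = 0.00383) and -1.29 in Florentine (adjusted p = 0.0148), and so did Eucgr.J00542 at -2.14 (adjusted p = 0.0292) and -1.21 (adjusted p = 0.033). Eucgr.E00787 rose by 1.34 (adjusted p = 0.0421) and 1.12 (adjusted p = 0.0288), and Eucgr.K00036 by 0.92 (adjusted p = 0.0263) and 1.41 (adjusted p = 0.0148). Eucgr.H00245 fell at -0.94 (adjusted p = 0.0188) and -0.85 (adjusted p = 0.0149). This gene, Eucgr.K00036 and Eucgr.K03533 were listed through allele frequencies and so not for a change in level. Of these 3 genes, 1 fell and 1 rose in Meunna, and 1 fell and 2 rose in Florentine. Eucgr.H00245 is annotated LEA protein, group 2, and stands in this list because its annotation lacks the word dehydrin. Whether it is a dehydrin was not tested. Among the LEA genes Eucgr.F03133 had the profile nearest to that of Eucgr.I01292, at r = 0.965 over the 12 libraries.

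ABA is the hormone that induces many dehydrins, and genes of its signalling and response, chiefly receptors, went both ways. Of 10, 4 fell and 2 rose in Meunna (median log2 fold change -0.71) and 5 fell and 3 rose in Florentine (median -0.57). With library size only, 3 fell and 3 rose in Meunna and 4 fell and 4 rose in Florentine. The receptor gene Eucgr.J00169, annotated PYR1-like 4, fell at log2 fold changes of -1.77 in Meunna (adjusted p = 0.00994) and -1.29 in Florentine (adjusted p = 0.0148), and Eucgr.G03093, of the same annotation, at -1.49 (adjusted p = 0.00389) and -1.14 (adjusted p = 0.0152). Eucgr.F00600, of the ABA-responsive HVA22 family of membrane proteins, fell at -1.48 (adjusted p = 0.00372) and -1.18 (adjusted p = 0.0159), and its r with Eucgr.I01292 over the 12 libraries was 0.966. Eucgr.A01495, a receptor annotated regulatory component of ABA receptor 3, rose by 1.02 (adjusted p = 0.0305) and 1.56 (adjusted p = 0.0148). Eucgr.A01421, homeobox 7, in *A. thaliana* a transcription factor induced by ABA and water deficit, rose by 0.78 (adjusted p = 0.00946) and 1.31 (adjusted p = 0.0148).

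A list of drought and osmotic stress genes went both ways. Of 10, 6 rose and 2 fell in Meunna (median log2 fold change 1.22), and 6 rose and 4 fell in Florentine (median 0.94), where 2 fell with library size only. The annotations of 6 name drought, dehydration or osmotic stress, and of these 3 rose and 1 fell in Meunna and 3 rose and 3 fell in Florentine. The other 4 are annotated seed imbibition 2 (a pair of genes), galactinol synthase 4 and low temperature and salt responsive protein. Eucgr.D01888, osmotin 34, a pathogenesis-related thaumatin-like protein, stood at 3.84, 4.01 and 1.68 CPM in Meunna high KPY and at 122, 17.8 and 344 CPM in low KPY. It rose by 5.66 on the log2 scale in Meunna (adjusted p = 0.0117) and 5.65 in Florentine (adjusted p = 0.0148). Within Meunna low KPY, bulk 3 was its highest and bulk 2 its lowest, while the dehydrin was highest in bulk 1. Eucgr.B01601, drought-induced 21, rose by 3.68 (adjusted p = 0.00927) and 1.68 (adjusted p = 0.0242), and Eucgr.B00178, annotated seed imbibition 2, a name given to enzymes of raffinose sugar metabolism, by 2.44 (adjusted p = 0.0261) and 2.84 (adjusted p = 0.0164). Eucgr.H02584, galactinol synthase 4, an enzyme on the way to raffinose sugars, fell at -1.58 (adjusted p = 0.00431) and -1.09 (adjusted p = 0.0148), and the early dehydration gene Eucgr.E01258 at -1.28 (adjusted p = 0.0217) and -1.41 (adjusted p = 0.0148).

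Aquaporins are the channels that pass water through cell membranes. More of those listed fell than rose, but 7 of the 10 were annotated through genes the study listed as changed in these libraries. Among all genes, with 1 transcript per gene, 19.7% fell and 12.2% rose in Meunna, and 22.9% fell and 21.9% rose in Florentine. The 5 of 10 aquaporins called in Florentine were near the 44.8% of all genes called there. In Meunna 7 of 10 fell and 1 rose (median log2 fold change -1.78), and in Florentine 4 fell, 1 rose and 5 did not pass the test (median -0.86), or 4 and 2 with library size only. Among plasma membrane members, Eucgr.I01429 fell at log2 fold changes of -2.18 in Meunna (adjusted p = 0.00744) and -1.35 in Florentine (adjusted p = 0.0192), and Eucgr.D01836 at -1.98 (adjusted p = 0.00387) and -1.41 (adjusted p = 0.0169). Eucgr.J00930, listed through allele frequencies, fell at -0.95 (adjusted p = 0.00423) and -0.82 (adjusted p = 0.0152). The r of these genes with Eucgr.I01292 over the 12 libraries was 0.962, 0.979 and 0.965. The NOD26-like Eucgr.D00423 rose by 2.28 (adjusted p = 0.00684) and 2.83 (adjusted p = 0.0148), with an r of -0.866.

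**Figure D2:**
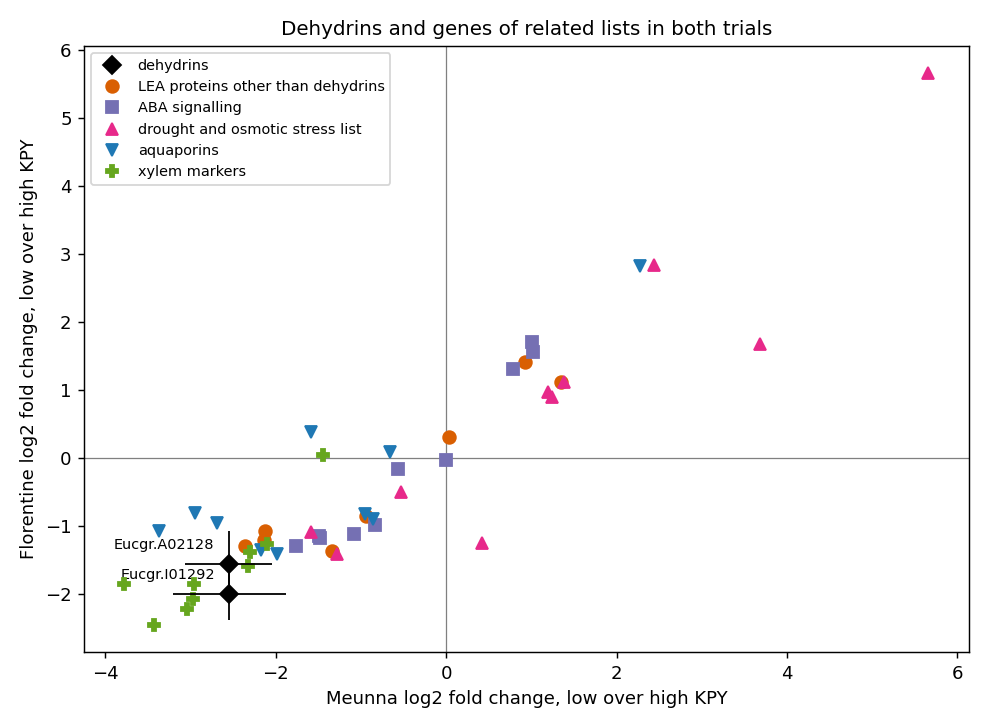
Log2 fold change of low over high KPY in Meunna (horizontal axis) and Florentine (vertical axis) for both dehydrins, with standard errors as bars, and for genes of the stress, water channel and xylem lists; each point is 1 gene, by its most abundant transcript in each trial. Both dehydrins lie at lower left with the xylem genes, at -2.55 in Meunna, while osmotin 34 lies at upper right at 5.66 and 5.65.

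Most genes of the xylem list moved with Eucgr.I01292. All 10 were annotated through genes the study listed as changed in these libraries, so their fall is not independent evidence of direction. Among all genes, with 1 transcript per gene, 19.7% fell in Meunna and 22.9% in Florentine. Of 10 xylem genes, 9 fell in Meunna and 8 of the 9 present in Florentine fell, with median log2 fold changes of -2.85 and -1.84, next to -2.57, -2.55 and -1.99 for the dehydrin's transcripts. The exception, the xylem cysteine peptidase Eucgr.F03589, had -1.45 (adjusted p = 0.058) and 0.04 (adjusted p = 0.891). Their summed level was 6631 to 9046 CPM in Meunna high KPY, 812 to 1860 in Meunna low KPY, 13711 to 15947 in Florentine high KPY and 2071 to 5638 in Florentine low KPY, and Meunna low KPY bulk 1 and Florentine low KPY bulk 1 had the highest sum of their class, as they did for the dehydrin. Florentine low KPY bulk 2 had the lowest sum and the lowest dehydrin level. In Meunna the lowest sum was in bulk 2, and the summed dehydrin was lowest in bulk 3 (0.465 CPM, exact Poisson 95% interval 0.304 to 0.681) with bulk 2 not separable from it (0.638 CPM, 0.467 to 0.851). The one with the most reads over all libraries of each trial, Eucgr.B02486, a fasciclin-like arabinogalactan protein (FLA12) of secondary walls, fell at -2.98 (adjusted p = 0.00513) and -2.07 (adjusted p = 0.0182). In the same libraries Eucgr.B01904, taken for phloem by its name, fell at -2.69 in Meunna (adjusted p = 0.019), with -1.66 in Florentine (adjusted p = 0.0926). The green tissue gene Eucgr.B01896 had -2.04 in Meunna (adjusted p = 0.229) and -1.22 in Florentine (adjusted p = 0.0992). Eucgr.D00322, of green tissue and present in Florentine alone, fell at -1.64 (adjusted p = 0.0332). The green tissue and phloem genes too were annotated through genes the study listed as changed in these libraries. Their log2 fold changes below 0 are therefore not independent evidence of direction. Eucgr.B01904 stood at 0.153 to 0.662 CPM in Meunna low KPY and so passed the filter of 1 CPM only through high KPY. The part of tissue makeup in the dehydrin's lower level was not tested.

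The profile of Eucgr.I01292 was compared with those of 16086 genes by Pearson's r of log2 CPM over the 12 libraries, as a description, since the libraries share the class and trial differences. The highest values were those of Eucgr.J02947, GATA transcription factor 12 (r = 0.993), Eucgr.J00938, an FLA12 protein of the xylem list (r = 0.990), Eucgr.A02505, of unknown function (r = 0.985), Eucgr.K02761, of the RIN4 family known from plant immunity (r = 0.985), and Eucgr.G02333, of unknown function (r = 0.984). Values above 0.9 were found in 1235 genes, 7.68% of all, so a high r over these libraries was not rare. Once the mean of each trial and class was removed, 33 genes (0.205%) were above 0.9. The highest were again Eucgr.J02947 (r = 0.965), Eucgr.K02761 (r = 0.958) and Eucgr.J00938 (r = 0.949), followed by Eucgr.D01170, of unknown function (r = 0.946), and Eucgr.A01455, IQ-domain 21, of a family of calmodulin-binding proteins (r = 0.945).

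These within-class values rest mainly on the low KPY bulks, where the deviations of the dehydrin were 1.27, -0.42 and -0.85 in Meunna and 0.60, -0.93 and 0.33 in Florentine on the log2 scale, while those of the high KPY bulks lay between -0.11 and 0.15. The 9 xylem genes present in both trials had within-class r of 0.522 to 0.949 with the dehydrin. The GATA factor Eucgr.J02947 had 8.49, 6.91 and 5.99 CPM in Meunna high KPY and 3.45, 1.46 and 1.45 CPM in low KPY. In Florentine it had 12.4, 10.6 and 12.3 CPM in high KPY and 6.66, 3.32 and 6.02 CPM in low KPY. Its order of bulks in Meunna high KPY, with bulk 1 highest and bulk 3 lowest, was that of the summed dehydrin. In Florentine high KPY the orders differed, with bulk 1 highest for the GATA factor, bulk 3 highest for the dehydrin and bulk 2 lowest for both. The fall of the GATA factor was smaller than the dehydrin's, at log2 fold changes of -1.75 and -1.15. Eucgr.K02761 had log2 fold changes of -2.69 (adjusted p = 0.0139) in Meunna and -1.39 (adjusted p = 0.042) in Florentine.

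**Figure D3:**
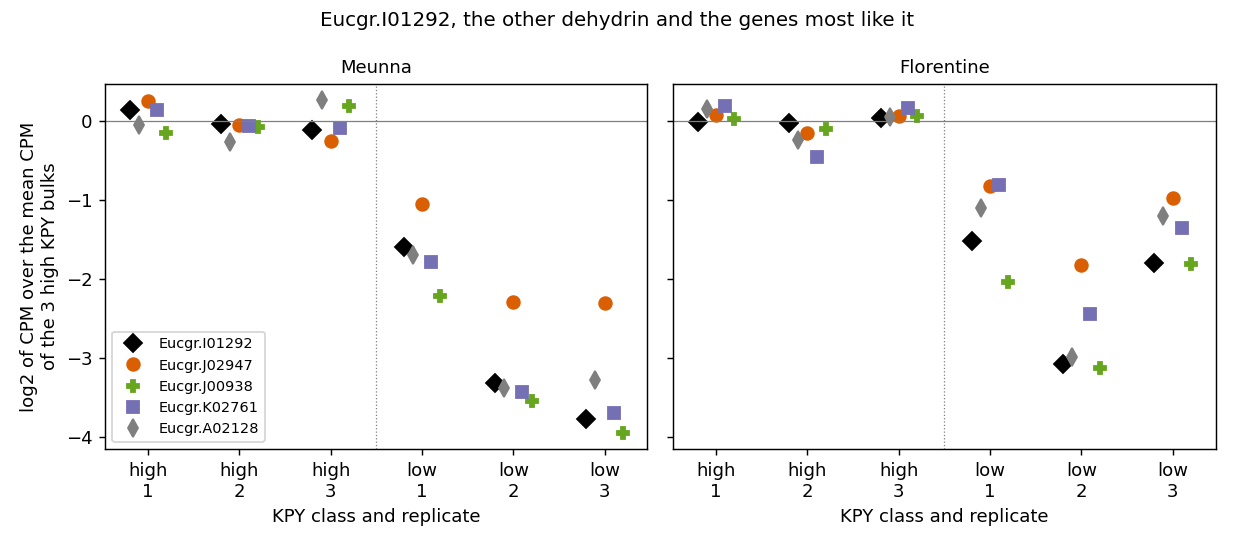
Log2 of CPM over the mean CPM of the 3 high KPY bulks of the same trial (vertical axis) in each bulk (horizontal axis, class and replicate number) for Eucgr.I01292, the other dehydrin Eucgr.A02128, and Eucgr.J02947, Eucgr.K02761 and Eucgr.J00938. All 5 genes lie near 0 in the high KPY bulks and below it in the low KPY bulks, with Meunna bulk 1 the least lowered and Florentine bulk 2 the most lowered of their class.

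Of the 10 gene identifiers flanking Eucgr.I01292, 5 on each side, 6 were present in each trial. The next identifier, Eucgr.I01293, a BEL1-like homeodomain 7 protein and so a transcription factor of the TALE class, was lower in low KPY like the dehydrin. Its levels were 242, 281 and 283 CPM in Meunna high KPY and 91.5, 54.9 and 75.6 CPM in low KPY, and 419, 345 and 416 against 231, 104 and 164 CPM in Florentine. The classes did not overlap, and the log2 fold changes were -1.86 (SE 0.20, adjusted p = 0.00267) and -1.24 (SE 0.28, adjusted p = 0.0202). By the study's positions neither the second Meunna transcript nor the Florentine transcript of Eucgr.I01292 overlaps this neighbour, but the library kit keeps no strand, so reads of unannotated overlapping RNA could not be told apart.

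Reads of Eucgr.I01292 as a percentage of those of Eucgr.I01293 give the dehydrin's change beyond that of its neighbour. They were 2.90%, 2.20% and 2.08% in Meunna high KPY and 2.31%, 1.16% and 0.615% in low KPY, where bulk 1 lay within the high KPY range. They were 3.06%, 3.66% and 3.18% in Florentine high KPY and 1.95%, 1.46% and 2.27% in low KPY, without overlap. Measured against its neighbour, the dehydrin was below the high KPY range in every Florentine low KPY bulk and in Meunna bulks 2 and 3. The dehydrin was chosen for its own fall and Eucgr.I01293 fell less, so a lower percentage in low KPY follows from that choice.

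The remaining neighbours were mixed. Eucgr.I01289, G-box binding factor 6, a transcription factor, fell at log2 fold changes of -0.65 in Meunna (adjusted p = 0.0235) and -0.43 in Florentine (adjusted p = 0.04996). Eucgr.I01290 had log2 fold changes of 0.18 (adjusted p = 0.655) and 0.05 (adjusted p = 0.871). On the other side of the dehydrin, Eucgr.I01294 rose by 1.17 in Meunna (adjusted p = 0.0383) and had 0.70 in Florentine (adjusted p = 0.11). The most abundant transcripts of Eucgr.I01295 and Eucgr.I01296 rose in Florentine by 0.49 (adjusted p = 0.0187) and 0.27 (adjusted p = 0.044). In Meunna they had 0.35 (adjusted p = 0.0644) and 0.39 (adjusted p = 0.0896). The other Florentine transcript of Eucgr.I01296 was not called, at 0.33 (adjusted p = 0.16). The other Meunna transcripts of Eucgr.I01295 and Eucgr.I01296 had 0.56 (adjusted p = 0.154) and 0.38 (adjusted p = 0.136).

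**Figure D4:**
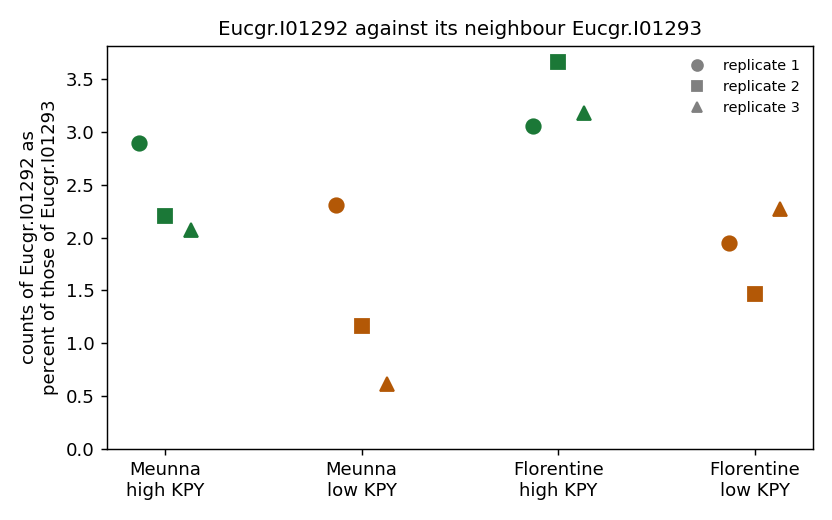
Counts of Eucgr.I01292, all transcripts summed, as a percentage of the counts of the neighbouring gene Eucgr.I01293 in each bulk (vertical axis, percent, starting at 0), by trial and KPY class, with a symbol for each replicate number. Florentine low KPY bulks lie at 1.46 to 2.27%, below the high KPY bulks at 3.06 to 3.66%, while in Meunna 1 low KPY bulk lies at 2.31%, among the high KPY bulks at 2.08 to 2.90%.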

How the data were processed

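RNA from cambial scrapings was sequenced as 12 libraries on Illumina HiSeq from TruSeq kits, and the authors removed adapters and low quality reads, pooled the reads of each trial, mapped them to the *E. grandis* genome with TopHat, had Cufflinks build transcripts unguided by any annotation, and used BEDtools to count the reads of single bulks. The sources used here give no genome version. In 1 table per trial, whole-number read counts per transcript were deposited by the authors, whose stated filter was 1 CPM in at least 3 libraries. Neither coordinates nor sequences were used for levels, and counts are not divided by transcript length, so levels of different genes are not ranked.

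The analysis ran in R 4.3.3 with limma 3.58.1, edgeR 4.0.16 and DESeq2 1.42.0. Each trial was fitted on its own over all transcripts with TMM scaling and edgeR's quasi-likelihood test of low against high KPY, with Benjamini-Hochberg adjustment over the whole table and a threshold of 0.05. SE is the log2 fold change divided by the square root of F. Counts were summed per gene for the interaction of trial and KPY and for likeness, which used log2 CPM with a prior count of 2 in genes of mean CPM of at least 1 in both trials. Bulks of a class are pools of different trees, so p-values measure the spread between pools. The scripts were tested on simulated counts with known changes.

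The gene and all lists were chosen with earlier results of these data known. Named were Eucgr.I01292, each gene annotated as a dehydrin, the 5 identifiers on each side, and the 5 genes most like Eucgr.I01292 by each measure. Each stress list gave up to 3 genes a direction, past the threshold in both trials with the largest mean change. The most abundant marker, the xylem exception and the green tissue and phloem markers were also named. Alternatives were other scalings (RLE, upper quartile, library size only), DESeq2, edgeR's exact test, a replicate block, stricter filters and thresholds, any transcript of a gene, and leaving out each library. Reads shared by near-identical gene copies were not resolved.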

Additional observations from a re-analysis of the deposited data

How the results depend on the processing

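The log2 fold changes of Eucgr.I01292 stayed below 0 under every alternative that was run. Other than by leaving out a library, they ran from -2.83 to -2.29 for CUFF.32246, from -2.95 to -2.26 for CUFF.32247 and from -2.11 to -1.70 for CUFF.29919, with library size only at the upper end of each range. Leaving out 1 library gave -3.22 to -2.12, -3.71 to -2.11 and -2.30 to -1.65. A filter of at least 5 CPM in 3 libraries removed both Meunna transcripts and gave no value for them. Summing both Meunna transcripts, an alternative chosen after seeing the data, gave -2.56.

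Replicate numbers did not pair the bulks. The deviations of same-numbered bulks correlated at -0.08, 0.04 and 0.12 in Meunna and at -0.08, 0.26 and -0.01 in Florentine, and not every bulk correlated best with its own number. With the replicate block the log2 fold changes were -2.83, -2.95 and -2.11, the interaction was 0.70, the calls over all transcripts numbered 6167 in place of 7354 in Meunna and 9154 in place of 9450 in Florentine, and 5 of the 10 drought genes were called in Meunna in place of 8.

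The interaction stayed above 0 and past no threshold, from 0.143 to 1.47 with 1 library left out. The share on CUFF.32246 ran from -9.43 to 9.47 percentage points, turning sign without low KPY bulk 2. At an adjusted p of 0.01, called genes in Meunna were 1 of the LEA list, 5 of the drought list and 5 aquaporins, and in Florentine 0 in the LEA, ABA, drought and aquaporin lists. With 1 library left out, called genes ran in Meunna from 1 to 5 (LEA), 4 to 6 (ABA), 6 to 8 (drought) and 6 to 8 (aquaporins), and in Florentine from 0 to 8, 0 to 8, 0 to 10 and 0 to 5. In Florentine the 0 came from leaving out high KPY bulk 1 or bulk 3, and without low KPY bulk 3 called genes were 4, 4, 5 and 3. The cause was not tested. Over all transcripts, calls in Meunna numbered 7354, and 2508 at an adjusted p of 0.01 or 4163 to 5969 with 1 library left out. In Florentine they numbered 9450, and 0 at 0.01 or 0 to 10281 with 1 library left out. The interaction was called in 0 genes by edgeR, with 1150 at an unadjusted p under 0.05, and in 110 by DESeq2.

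Scaled by library size only, 30.5% of Meunna calls were lower in low KPY in place of 60.4% (47.1% under upper quartile), and 21.7% of Florentine calls in place of 50.7%. The other dehydrin, Eucgr.A02128, kept its call in all 13 refits in Meunna (adjusted p from 2.02e-05 to 0.0447). In Florentine it lost it with library size only (adjusted p = 0.0571) and without high KPY bulk 1, 2 or 3 or low KPY bulk 3. Of the 5 genes most like the dehydrin, 5 were kept with a prior count of 0.5 by both measures, and with Spearman's rho 0 were kept over the 12 libraries and 2 in the deviations. Depth limits the Meunna low KPY values most, with 6 to 110 counts a transcript.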
